A study of Mus musculus with 4 samples.

Results

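Type I interferon-stimulated genes were followed in sorted cardiac macrophages and other Csf1r-reporter cells of uninjured and infarcted mouse hearts. The set was a list of 47 gene symbols, chosen by name and not by any measured value, though earlier results of these data were known. Of these symbols, 46 matched a row among the 31053 genes of the count matrices. Mx2 was the listed gene not analysed here. Droplet-based single-cell RNA sequencing had been run on CSF1R-EGFP reporter mice aged 12 to 16 weeks, in which EGFP is driven by the Csf1r promoter and so also marks monocytes and some other myeloid cells. EGFP+ Ly6G- cells were sorted. The baseline group was 1 library of 3 pooled hearts without surgery. For the infarct group each of 3 hearts gave its own library, 7 days after ligation of the left coronary artery, with the remote zone cut away before digestion. A total of 10238 baseline cells and 10396, 10782 and 10117 infarct cells passed the filters, with medians of 6398.5 UMIs (molecules counted once each) at baseline and 8469.5 to 8556.5 UMIs in the infarct libraries. Pairs of libraries shared 0.257% to 0.332% of their barcodes.

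Type I interferons are secreted proteins that bind the IFNAR1 and IFNAR2 receptor chains, activate the kinases JAK1 and TYK2, and drive the factor ISGF3, which contains STAT2 and IRF9, to its response elements in promoters. The genes switched on encode sensors of foreign nucleic acid, enzymes that degrade or modify RNA and proteins, membrane and cytoplasmic restriction factors, and the factor IRF7, which amplifies further interferon production. In macrophages the same program can be started by the cell's own DNA or RNA, and several listed genes, among them the GTPases Igtp, Irgm1, Ifi47 and the Gbp genes, also respond strongly to interferon gamma.

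Promoter sequences of RefSeq (build GRCm38.p6) were found for 37 of the 46 genes. In windows from 250 bases before to 50 bases after a gene's start, the core of the interferon response element, GAAA followed by any 2 bases and GAAA, was searched on both strands, and overlapping matches were counted separately. A match was present for 21 of the 37 listed genes (56.8%), against 1058 of 26988 other genes (3.92%). The bases 150 to 1 before the start are given for 5 genes of differing role that the results below turn on, with the matched bases in capitals.
Isg15 (chr4:156200819-156200968, minus strand): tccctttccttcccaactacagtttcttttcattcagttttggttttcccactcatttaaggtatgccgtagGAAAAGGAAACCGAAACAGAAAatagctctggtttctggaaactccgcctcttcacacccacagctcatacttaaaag
Ifit1 (chr19:34640739-34640888, plus strand): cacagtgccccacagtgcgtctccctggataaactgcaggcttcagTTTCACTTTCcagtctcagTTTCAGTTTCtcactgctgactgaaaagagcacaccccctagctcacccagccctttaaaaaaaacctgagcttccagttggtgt
Rsad2 (chr12:26456453-26456602, minus strand): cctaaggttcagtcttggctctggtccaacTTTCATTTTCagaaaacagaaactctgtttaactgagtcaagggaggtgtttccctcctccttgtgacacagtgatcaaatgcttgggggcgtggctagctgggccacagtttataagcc
Bst2 (chr8:71537473-71537622, minus strand): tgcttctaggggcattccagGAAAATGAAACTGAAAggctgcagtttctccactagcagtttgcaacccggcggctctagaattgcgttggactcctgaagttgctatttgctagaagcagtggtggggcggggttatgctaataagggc
Irf7 (chr7:141266425-141266574, minus strand): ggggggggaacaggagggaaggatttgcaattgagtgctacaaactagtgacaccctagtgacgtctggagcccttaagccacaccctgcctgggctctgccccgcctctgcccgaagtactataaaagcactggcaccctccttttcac
Isg15 held 3 overlapping matches, Ifit1 and Bst2 held 2 each and Rsad2 held 1. No match lay in the whole window of Irf7.

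Ifit3 and Ifit3b are neighbouring copies on chromosome 19, and their promoters are shown side by side because the same bases precede both genes. Starting 5 bases before the first match, 110 of 110 bases were identical.
Ifit3 (chr19:34583368-34583477, plus strand): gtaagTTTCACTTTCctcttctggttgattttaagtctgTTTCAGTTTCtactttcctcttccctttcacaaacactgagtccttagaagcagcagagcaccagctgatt
Ifit3b (chr19:34607764-34607873, plus strand): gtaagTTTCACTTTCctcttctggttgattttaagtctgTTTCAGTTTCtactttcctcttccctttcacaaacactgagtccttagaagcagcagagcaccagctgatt
How reads were divided between this pair was not measured, nor between the copies of the Oas1, Slfn, Gbp, Ifi204, Trim30 and Phf11 families, so the separate counts of these genes are taken as uncertain.

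All 46 genes were detected in all 4 libraries. Levels are given as CPM, a gene's UMIs for every 1000000 non-mitochondrial UMIs of the same cells. The fewest UMIs of any gene in any library were the 131 of Ifi44 at baseline, so 0 of 46 genes were at or under 3 UMIs in a library and none met the rule for an all-or-none difference. In that sense every gene was graded between libraries, which does not mean that each differed. The rule could be met only by a gene all but absent from a whole library. The 46 genes together made up 0.429% of non-mitochondrial UMIs at baseline (95% exact binomial interval 0.427% to 0.430%, counting error only) and 0.397%, 0.492% and 0.414% in infarct 1, 2 and 3, a mean of 0.434% ± 0.0508 (SD, n = 3). The infarct libraries lay on both sides of the baseline value. Ifi27l2a, which encodes a small mitochondrial membrane protein, alone was at 1470 CPM at baseline, and 941, 1145 and 1126 CPM in the infarct libraries. Without Ifi27l2a the summed share was 0.282% at baseline and 0.303%, 0.378% and 0.301% in the infarct libraries, all above baseline. Counts are of 3′ ends, 1 per molecule, and were not divided by transcript length.

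The question of the first comparison was how the day 7 infarct differed from the uninjured heart. With a single baseline library there was no test, and a difference between conditions cannot be told apart from one between libraries. A gene was called when all 3 infarct libraries were at least 2-fold from baseline on the same side. Irf7 and Ifi44 met this upward and no gene met it downward, 2 and 0 of 46, while 1.92% and 4.23% of all genes averaging 5 CPM or more over the libraries did so. Without any fold limit, 23 of 46 genes were above baseline in all 3 infarct libraries and 15 were below in all 3, against 28.8% and 57.3% of all genes. The median log2 ratio, infarct mean over baseline, was 0.20 over the 46 genes and -0.20 over all genes.

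Because that median was not at 0, the scaling mattered. When the 4 libraries were scaled by the trimmed mean of M values (TMM), 8 genes were at least 2-fold above baseline in all 3 infarct libraries and 0 were that far below, against 3.07% and 2.35% of all genes. The split without a fold limit became 30 above and 8 below, against 48.6% and 36.4% of all genes. The genes called with TMM were Ifit2, Isg15, Rsad2, Oasl1, Oas3, Irf7, Ifi44 and Lgals3bp. Leaving out infarct 1 gave 4 upward calls with the CPM scaling (Ifit3b, Irf7, Ifi44 and Lgals3bp), and leaving out infarct 3 gave 4 (Isg15, Oas3, Irf7 and Ifi44).

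**Figure D1:**
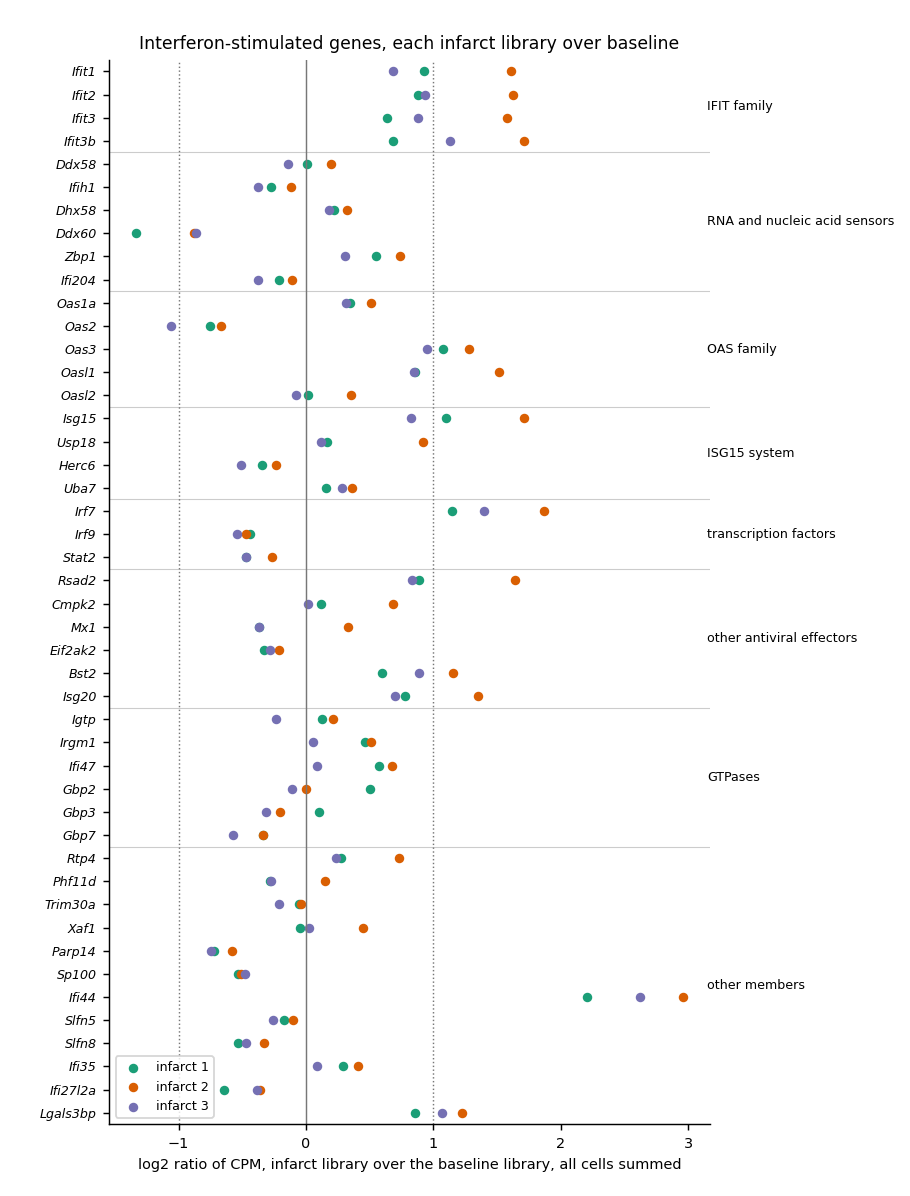
Log2 ratio of CPM of each infarct library (3 coloured points) over the baseline library for the 46 genes, grouped by role, with all cells of a library summed; dotted lines mark 2-fold. Irf7 and Ifi44 have all 3 points beyond 2-fold upward, and 40 of 46 genes have their highest infarct value in infarct 2.

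The IFIT genes, whose products bind foreign RNA and block its translation, were all above baseline. Ifit3 was at 35.2 CPM at baseline and at 54.7, 105 and 64.9 CPM in infarct 1, 2 and 3. Ifit2 was at 28.1 CPM and at 51.7, 86.6 and 53.8 CPM, and Ifit1 at 17.4 CPM and at 33.0, 53.0 and 27.8 CPM. Infarct 2 was highest for each, and no infarct library overlapped baseline. Ifit3b followed with 7.06 CPM and 11.3, 23.1 and 15.4 CPM.

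Among the transcription factors the directions differed. Irf7 was at 43.6 CPM at baseline and at 96.5, 159 and 115 CPM in the infarct libraries, a ratio of 2.83 for their mean. Irf9 and Stat2, which encode parts of ISGF3, were below baseline in every infarct library with the CPM scaling. Irf9 was at 84.0 CPM at baseline and at 61.8, 60.6 and 57.8 CPM, and Stat2 was at 48.8 CPM and at 35.2, 40.6 and 35.2 CPM. With TMM Irf9 stayed below in all 3 and Stat2 lay on both sides.

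The ISG15 system attaches and removes the ubiquitin-like protein ISG15. Isg15 was at 58.9 CPM at baseline and at 126, 192 and 104 CPM in the infarct libraries. Usp18, the protease that removes ISG15 and dampens receptor signalling, was at 18.6 CPM and at 20.8, 35.2 and 20.2 CPM. Uba7, its activating enzyme, was above baseline in all 3 (log2 ratio 0.27), while the ligase Herc6 was at 42.2 CPM at baseline and at 33.3, 35.9 and 29.6 CPM. Herc6 was thus below in all 3, and on both sides with TMM.

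The OAS family includes the enzymes that make 2′-5′ oligoadenylates, which activate RNase L, and its members split. Oas3 was at 16.8 CPM at baseline and at 35.3, 40.7 and 32.4 CPM in the infarct libraries, and Oasl1 at 6.38 CPM and at 11.5, 18.2 and 11.5 CPM. Oas2 was lower in every infarct library, at 32.6 CPM against 19.3, 20.5 and 15.7 CPM, under both scalings. Oas1a was above in all 3 (log2 ratio 0.39), and Oasl2 lay on both sides (0.11) but above in all 3 with TMM.

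Other antiviral effectors were mostly higher. Bst2, tetherin, which holds budding virions at the cell surface, was at 276 CPM at baseline and at 418, 613 and 510 CPM. Rsad2, viperin, was at 23.0 CPM and at 42.6, 71.8 and 41.0 CPM. Cmpk2, its neighbouring nucleotide kinase gene, had a log2 ratio of 0.30 and the exonuclease gene Isg20 of 0.97, each above in all 3. The GTPase gene Mx1 lay on both sides of baseline (-0.10), and the kinase gene Eif2ak2, PKR, was below in all 3 with CPM (-0.27) and on both sides with TMM.

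The nucleic acid sensors lay on both sides of baseline. Ddx60, a helicase that assists RIG-I, was at 43.8 CPM at baseline and at 17.4, 23.8 and 24.03 CPM, the lowest log2 ratio of the 46 at -1.01, below under both scalings. Zbp1, a sensor of Z-form nucleic acid, was at 58.1 CPM and at 85.1, 97.0 and 71.6 CPM. Dhx58 was above in all 3 (0.24). Ifih1 (MDA5, -0.25) and Ifi204 (-0.23) were below in all 3 with CPM and on both sides with TMM. Ddx58 (RIG-I, 0.03) lay on both sides, and above in all 3 with TMM.

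Of the interferon-inducible GTPases, Ifi47 (0.47) and Irgm1 (0.36) were above in all 3, Gbp7 (-0.41) was below in all 3, and Igtp, Gbp2 and Gbp3 lay on both sides, Igtp and Gbp2 above in all 3 with TMM. Among the remaining genes, Ifi44 had the largest ratio of all, at 1.94 CPM at baseline (95% Poisson interval 1.62 to 2.30) and at 8.96, 15.0 and 12.0 CPM. Lgals3bp, a secreted galectin ligand, was at 92.5 CPM and at 167, 216 and 193 CPM. Rtp4 (0.43) and Ifi35 (0.27) were above in all 3. Parp14 (-0.68), Sp100 (-0.51), Ifi27l2a (-0.46) and Slfn8 (-0.44) were below in all 3 under both scalings, Slfn5 (-0.18) and Trim30a (-0.10) were below with CPM and above with TMM, and Xaf1 and Phf11d lay on both sides, Xaf1 above in all 3 with TMM.

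The 3 infarct hearts did not carry the program at equal levels. Infarct 2 held the highest infarct value for 40 of 46 genes (87.0%), whereas it was highest for 24.7% of all genes, and for no listed gene was it the lowest. In macrophages alone it was highest for 39 of 46 genes, against 25.4% of all genes. The median coefficient of variation over the 3 infarct hearts was 15.6% for the 46 genes and 6.87% for all genes. It ranged from 2.09% for Sp100 to 36.0% for Ifit3b.

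Genes upstream of the program were low or near their baseline level. Ifnb1, the interferon beta gene, had 7 UMIs at baseline and 10, 19 and 118 UMIs in infarct 1, 2 and 3, so infarct 3 and not infarct 2 was highest. The interferon alpha genes Ifna1, Ifna2, Ifna4 and Ifna5 had 0 UMIs in every library, and Ifng had 0, 1, 1 and 6. The receptor genes Ifnar1 (log2 ratio -0.47) and Ifnar2 (0.19) and the kinase genes Jak1 (-0.39) and Tyk2 (-0.27) kept to within 2-fold of baseline. The interferon-induced chemokine gene Cxcl10 was at 42.6 CPM and at 97.6, 148 and 95.3 CPM, at least 2-fold above in all 3.

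Cells were then assigned to types by fixed marker lists that held none of the 46 genes. Macrophages, with complement C1q genes at or above 0.3% of UMIs, made up 63.9% of cells at baseline and 74.2% to 82.6% in the infarct libraries. Among them, cells with the resident markers Lyve1, Cd163, Timd4, Folr2, Cbr2 and Retnla numbered 2955 at baseline and 92 to 141 per infarct library, and cells with Gpnmb, Spp1 and related markers numbered 69 and 1538 to 2114. The 6 genes of the macrophage marker list summed to at least 8925 CPM in every macrophage gate and library and to at most 4573 CPM in any other class, which was the cells of infarct 3 that no gate took. C1qa, C1qb and C1qc are among these genes and set the macrophage gate, so this separation follows in part from the gating. Sorted cells also held classical and non-classical monocytes, dendritic cells, B cells and a few granulocytes, endothelial cells and fibroblasts, which the reporter gate let through.

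Plasmacytoid dendritic cells, the specialised interferon producers, had the highest summed share, 0.709% at baseline and 0.638%, 0.943% and 0.738% in the infarct libraries, from 11 to 23 cells each. Bst2, which is also a surface marker of these cells and was not used to gate them, was at 4416 CPM in them at baseline and at 4512, 4669 and 4491 CPM. Classical monocytes followed with 0.561% at baseline and 0.508%, 0.782% and 0.565% in the infarct libraries. Non-classical monocytes were low, at 0.278% and at 0.261%, 0.287% and 0.234%. The infarct values of these monocyte classes did not overlap. The place of plasmacytoid cells rested on a few genes. Without the 3 listed genes with the most UMIs their share was 0.212% at baseline and an infarct mean of 0.216%, under the 0.336% and 0.347% of classical monocytes.

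Within macrophages the order of the subsets depended on Ifi27l2a. Resident macrophages were at 0.510% at baseline and at 0.535%, 0.582% and 0.504% in the infarct libraries. Their gate did not hold like cells in both groups. Its summed resident markers were at 4818 CPM at baseline and at 3078, 1977 and 2584 CPM in the infarct libraries. The summed markers of Saa3 macrophages (Saa3, Arg1, Marco, Fn1 and Slpi) were at 117 CPM in it at baseline and at 6660, 832 and 4548 CPM. Gpnmb macrophages were at 0.241% at baseline and at 0.347%, 0.422% and 0.369%, all above. The infarct mean was 0.540% ± 0.0389 (SD, n = 3) in resident macrophages, 0.460% ± 0.0428 in macrophages of no subset, 0.446% ± 0.118 in Saa3, 0.412% ± 0.0427 in cycling and 0.379% ± 0.0383 in Gpnmb macrophages, and neighbours in this order overlapped. Without Ifi27l2a the means were 0.311% in resident macrophages, 0.354% in those of no subset, 0.292% in Saa3, 0.253% in cycling and 0.308% in Gpnmb macrophages, so resident macrophages no longer stood first. The reporter sort contains no type known to lack these genes, so the part of free RNA in the shares was not tested. The lowest infarct value of a type compared below was 0.223%, in type 2 dendritic cells of infarct 3.

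**Figure D2:**
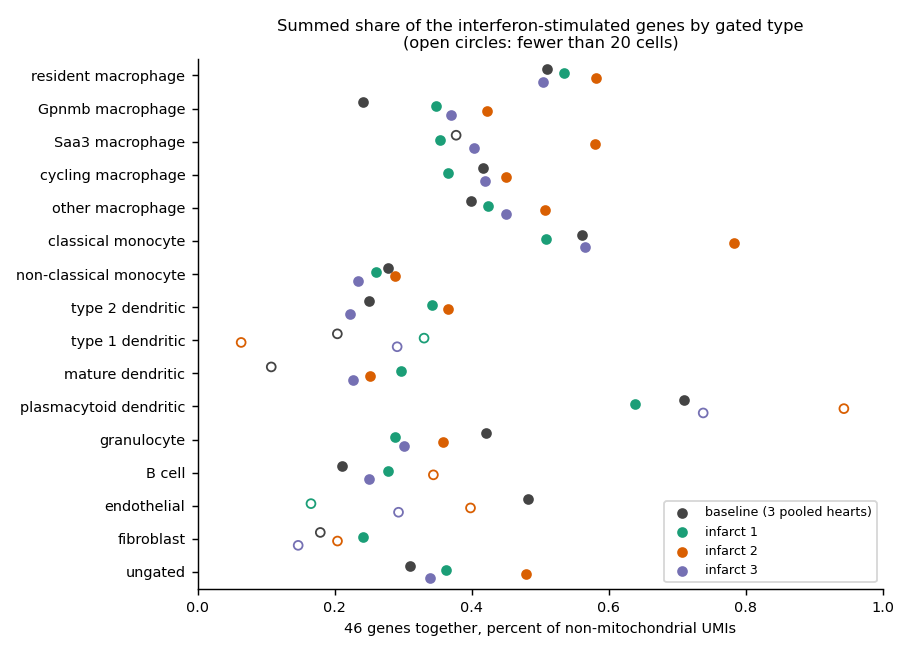
Percent of non-mitochondrial UMIs that came from the 46 genes, by marker-gated type (rows) and library (coloured points, 1 per library); open circles mark fewer than 20 cells. Plasmacytoid dendritic cells and classical monocytes lie to the right, and infarct 2 is the highest infarct library in most types.

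Each type with at least 20 cells in every infarct library was compared with the macrophages of the same 3 hearts (for a macrophage subset, with all other macrophages) on summed counts by edgeR's quasi-likelihood test with the heart as a block and a Benjamini-Hochberg adjusted p threshold of 0.01 over all genes tested. Fewer cells of a type do not enter these levels, which are relative to all UMIs of the gated cells.

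In classical monocytes 18 of 46 genes were higher and 4 lower than in macrophages, while 16.3% of all genes were higher and 15.4% lower, and the median log2 fold change was 0.40 over the 46 genes and -0.05 over all genes. Zbp1 was at 160, 268 and 149 CPM in the monocytes of the 3 hearts and at 77.3, 86.9 and 70.8 CPM in their macrophages (log2 fold change 1.29 ± 0.123 SE, adjusted p = 0.000155). Isg15 was at 177, 489 and 224 CPM against 113, 167 and 103 CPM (1.15 ± 0.157, adjusted p = 0.000865), and Ifi27l2a at 1678, 2267 and 2062 CPM against 874, 1071 and 1115 CPM (1.01 ± 0.0662, adjusted p = 3.18e-05). Each was higher in 3 of 3 hearts. Oas1a, Oas2 and Oas3 and the sensors Ifi204 and Dhx58 were also higher, whereas 0 of 4 IFIT genes were and Ifit3b was lower (-1.08). Lgals3bp (-1.08), Bst2 (-0.62) and Uba7 (-0.46) were the other lower genes. Ly6c2 and Plac8, used to gate these cells, are themselves known to respond to interferon. Without infarct 3 the calls numbered 13 in place of 22.

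Non-classical monocytes had 0 of 46 genes higher and 31 lower, against 9.99% and 11.4% of all genes. The median log2 fold change was -1.09 over the 46 genes and -0.12 over all genes. Ifit3 was at 22.8, 16.8 and 2.82 CPM in them and at 80.9 CPM on average in macrophages (-2.75 ± 0.242, adjusted p = 2.82e-28, lower in 3 of 3 hearts). Bst2 was at 128 ± 16.8 CPM against 543 CPM (-2.18 ± 0.125, adjusted p = 6.13e-65). All 4 IFIT genes, all 3 transcription factors (Irf7, Irf9 and Stat2), 4 of 6 GTPases and 3 of 6 sensors were lower. The smallest called differences were those of Parp14 (-0.57) and Trim30a (-0.61), and Parp14 lost its call without infarct 2 (adjusted p = 0.0214), after thinning to 2000 UMIs (0.0215) and with DESeq2 (0.0200). These cells had a median of 3984 to 4747 UMIs, against 8518 to 8645 in macrophages.

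Type 2 dendritic cells, which present antigen to helper T cells, had 3 genes higher and 19 lower, against 17.6% and 18.5% of all genes (medians -0.37 and -0.08). Isg20 was at 61.2 CPM against 23.7 CPM in macrophages (1.38 ± 0.194, adjusted p = 0.000128), and Ifi35 (0.98) and Sp100 (0.47) were also higher. Thinned to 2000 UMIs per cell, Isg20 was not called (0.73, adjusted p = 0.169). Ifi204 had the largest difference downward, 53.9 against 208 CPM (-1.94 ± 0.188, adjusted p = 6.41e-06). Of the IFIT genes, Ifit2, Ifit3 and Ifit3b were lower.

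Mature dendritic cells, the Ccr7+ cells that migrate to lymph nodes, had members far apart on both sides, with 6 higher and 24 lower against 10% and 12.7% of all genes (medians -0.96 and -0.30). Mx1, a dynamin-like GTPase that traps viral nucleocapsids, was at 150, 197 and 128 CPM in those of the 3 hearts and at 15.9, 24.8 and 16.5 CPM in their macrophages (adjusted p = 2.09e-38). Gbp2 was at 242 against 36.4 CPM (2.76 ± 0.195, adjusted p = 1.15e-43). Both were higher in 3 of 3 hearts. Of the ISG15 system Isg15 (0.72), Herc6 (1.35) and Uba7 (1.45) were higher, and Isg15 was so in 2 of 3 hearts. At the same time Ifi204 (-3.22), Ifit2 (-2.50) and Ddx58 (-2.17) were lower. Slfn8 and Oas2 were also called lower, on 3 and 2 UMIs that all came from infarct 1, with 0 in the other hearts, so no fold is given for them. The gate held 25 to 73 cells per heart.

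Granulocytes, of which the Ly6G- gate left 39 to 79 per infarct heart, had 0 genes higher and 13 lower, against 5.67% and 9.35% of all genes (medians -0.54 and -0.38). Mx1 and Ifi44 had 0 UMIs in them in all 3 hearts, at least 2.96-fold and 1.97-fold lower than in macrophages when 3 UMIs over the group are taken as the floor. Lgals3bp was at 26.6 against 210 CPM (-3.24 ± 0.322, adjusted p = 6.00e-22). Isg15 was at 154, 235 and 89.0 CPM and was not called. The calls numbered 8 without infarct 2 and 0 without infarct 3, and these cells had a median of 2274 to 2793 UMIs.

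Among the macrophage subsets, cycling macrophages had 1 gene higher and 27 lower than other macrophages, against 16.3% and 11.9% of all genes (median log2 fold changes -0.41 and -0.03). Slfn5, a Schlafen gene, was at 64.6 against 208 CPM (-1.74 ± 0.103, adjusted p = 1.74e-07), and all 4 IFIT genes were lower, Ifit3 at 34.7 against 83.0 CPM (-1.33 ± 0.104, adjusted p = 1.94e-06). Ifi27l2a was the higher gene (0.62 ± 0.0436, adjusted p = 7.85e-07). Cycling cells were deeper, with medians of 14446 to 14996 UMIs, and after thinning every cell to 2000 UMIs before gating the calls numbered 12 in place of 28.

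Saa3 macrophages, named for an acute-phase gene and also marked by Arg1 and Fn1, had 1 gene higher and 16 lower, against 12.9% and 9.52% of all genes (medians -0.26 and -0.03). The 4 IFIT genes were all lower, Ifit3 at 33.4 against 85.0 CPM (-1.58 ± 0.129, adjusted p = 1.80e-06) and Ifit2 at 29.7 against 72.9 CPM (-1.45 ± 0.105, adjusted p = 6.77e-07). Gbp2 was higher, 78.2 against 33.2 CPM (1.14 ± 0.147, adjusted p = 7.86e-05).

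Resident macrophages had 3 genes higher and 6 lower, against 4.55% and 4.62% of all genes (medians -0.27 and -0.03). Ddx60 was at 62.1, 65.7 and 43.5 CPM in the 3 hearts against 22.5 CPM in other macrophages (1.18 ± 0.168, adjusted p = 9.85e-06), and Ifi27l2a at 2294 against 1000 CPM (1.06 ± 0.0950, adjusted p = 4.65e-09). Gbp7 was the third (0.51). Ifi44 (-1.94), Ifit3 (-1.18), Isg15 (-1.08), Mx1 (-1.02), Oas3 (-0.80) and Irf7 (-0.53) were lower in 3 of 3 hearts each. The infarct cells of this gate also carried Saa3 macrophage markers, as given above, and the part of that in these differences was not tested. Ifi44 was not called after thinning to 2000 UMIs (-1.13, adjusted p = 0.743), with DESeq2 (-2.02, adjusted p = 0.0118) or without the heart as a block (-1.97, adjusted p = 0.0496). Of the 9 calls 2 remained without the block and 4 with DESeq2. The calls numbered 14 without infarct 2 and 5 without infarct 3. Ddx60 and Ifi27l2a were also 2 of the genes lower in the infarct libraries as a whole, where resident macrophages were few, and the part of cell composition in that was not tested.

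Gpnmb macrophages had 1 gene higher and 7 lower, against 9.95% and 9.46% of all genes (medians -0.11 and -0.01). Lgals3bp was higher (0.35 ± 0.0429, adjusted p = 0.000441) and Ifi27l2a had the largest difference downward (-0.58 ± 0.0419, adjusted p = 2.23e-05). Gbp2, Gbp3 and Gbp7 were lower by 0.31 to 0.42 on the log2 scale. The calls numbered 3 without infarct 3 and 0 without the heart as a block.

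**Figure D3:**
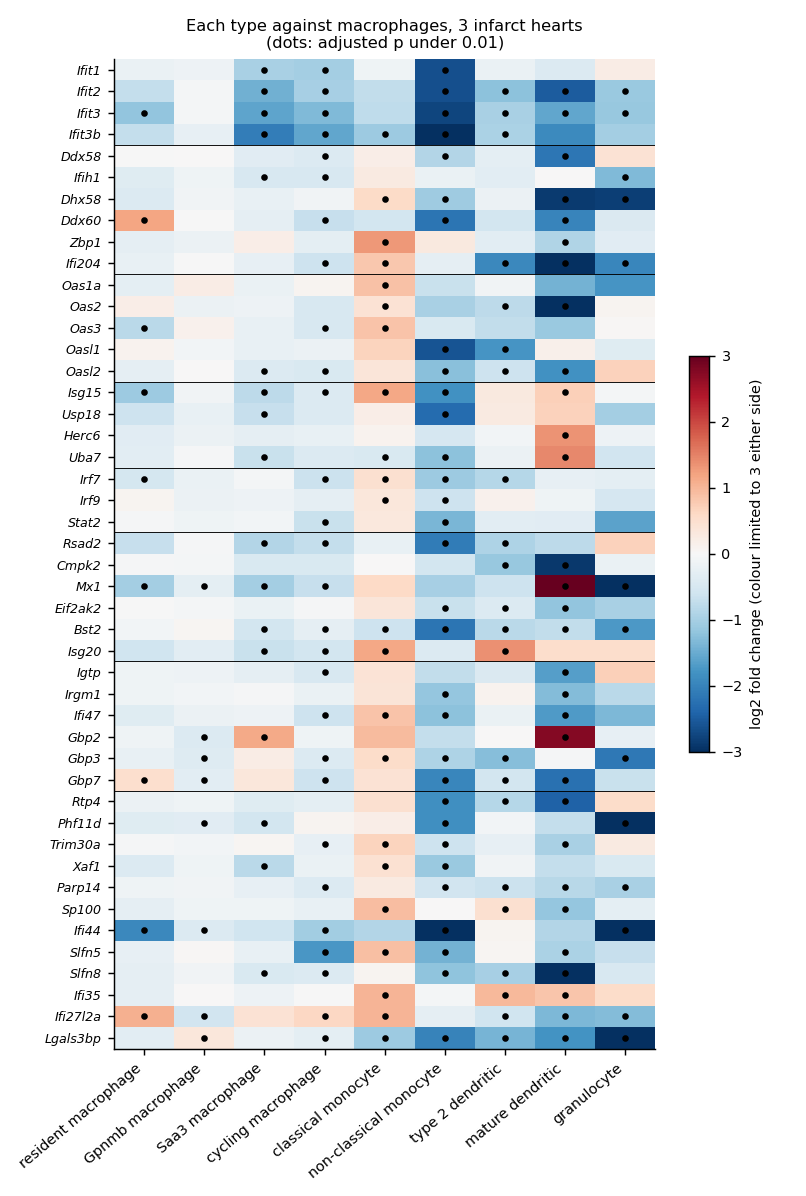
Log2 fold change of the 46 genes (rows, by role) in each of 9 types against macrophages of the same 3 infarct hearts (columns), with colour limited to 3 on either side and a dot where the edgeR adjusted p was under 0.01. Classical monocytes have 18 red dotted cells and non-classical monocytes 31 blue ones, and Mx1 and Gbp2 stand out in mature dendritic cells.

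To ask whether the program was spread over macrophages or held by some of them, each macrophage with at least 3000 UMIs was thinned to that number and its UMIs of Ifit1, Ifit2 and Ifit3 were counted. Left out as shallower were 816 macrophages at baseline and 749, 721 and 1112 in the infarct libraries, and all values of this split are of the thinned cells. Most of these macrophages had none, 90.6% at baseline and 87.2%, 82.0% and 86.5% in the infarct libraries. At least 3 were found in 106 of 5727 macrophages at baseline (1.85%, 95% exact interval 1.52% to 2.23%) and in 336 of 6966, 595 of 8182 and 310 of 7161 in the infarct libraries (4.82%, 7.27% and 4.33%, a mean of 5.47% ± 1.58, SD, n = 3). All 3 infarct libraries were above the baseline interval, at 2.34 to 3.93 times the baseline share. Among resident macrophages the share was 1.72% at baseline and 3.48%, 4.49% and 1.48% in the infarct libraries, so infarct 3 was below. In macrophages of no subset it was 1.99% and 5.5%, 7.7% and 5.1%. In Gpnmb macrophages it was 0% at baseline and 5.0%, 6.7% and 3.8% in the infarct libraries. In cycling macrophages it was 2.02% at baseline and 2.5%, 3.8% and 2.8%. The baseline gates held 69 Gpnmb and 105 cycling macrophages before shallower cells were left out, so these baseline shares rest on few cells. Saa3 macrophages were below in all 3, at 1.2% to 5.7% against 8.33%, but the baseline gate held 12 of them. The part of subset composition in the pooled ratio was not tested. The count per cell was a range without a gap, since 80, 117 and 64 infarct cells had exactly 3 and 125, 207 and 148 had exactly 2. Macrophages with at least 3 are called IFIT-high, and those with none index-free.

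**Figure D4:**
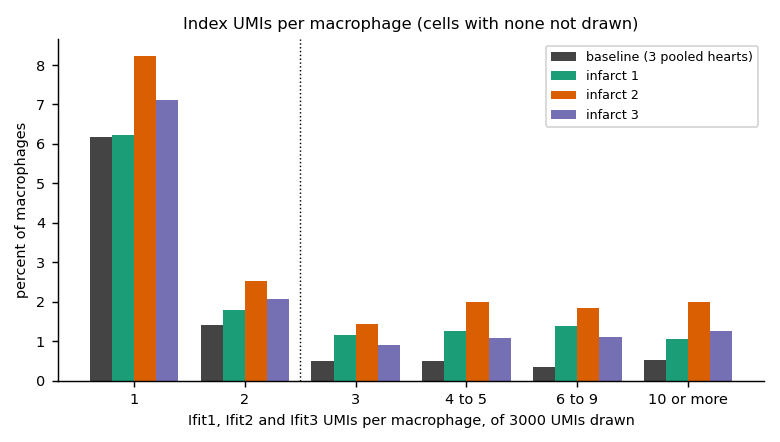
Percent of macrophages with at least 3000 UMIs (y axis) by number of Ifit1, Ifit2 and Ifit3 UMIs among 3000 drawn per cell (x axis), for each library, with macrophages that had none left out; the dotted line marks the limit of 3. Infarct 2 has the tallest bar in every class and baseline the shortest.

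The other 43 genes were then compared between IFIT-high macrophages and macrophages with no index UMI within each infarct heart. All 43 were higher, and each in 3 of 3 hearts, whereas 6.75% of all genes were higher and 1.94% lower. All 43 were again called higher in each alternative that kept the index genes, and with Rsad2, Cmpk2 and Isg15 as index genes the 40 that could still be tested were. Rsad2 was at 684, 735 and 732 CPM in the IFIT-high cells and at 7.70, 10.3 and 9.94 CPM in the others (log2 fold change 6.38 ± 0.0811, adjusted p = 1.66e-53). Ifit3b had the largest value, 6.65 ± 0.126 (adjusted p = 6.93e-45), and may share reads with the index gene Ifit3. Both values are of counts summed per heart, and single cells of the groups did overlap. Ifit3b was detected in 36.8% of IFIT-high and 0.69% of index-free infarct macrophages on average.

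The size of the difference graded the members. Cmpk2 (5.71), Mx1 (5.05), Isg15 (4.85), Usp18 (4.76), Oasl1 (4.74) and Ifi44 (4.40) followed Rsad2. In the middle lay Oas3 (3.65), Zbp1 (3.06), Slfn5 (3.03), Ddx58 (3.00), Ifi204 (2.98), Stat2 (2.77) and Irf7 (2.64). Sp100 (1.99), Bst2 (1.44), Uba7 (1.40), Lgals3bp (1.24), Irf9 (0.87 ± 0.100, adjusted p = 3.07e-10) and Ifi27l2a (0.86 ± 0.0473, adjusted p = 1.22e-22) were least different. The median was 2.83 over the 43 genes and -0.02 over all genes. The median was 2.81 for the 19 tested genes with a promoter match and 3.02 for the 15 with a window and no match.

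Bst2 and Ifi27l2a were thus broadly present and Rsad2 and Cmpk2 largely held by the IFIT-high cells. In the infarct libraries 74.6% ± 3.59 (SD, n = 3) of the Rsad2 UMIs of the thinned macrophages came from the IFIT-high cells, 67.2% ± 6.98 of those of Cmpk2 and 50.8% ± 3.79 of those of Isg15. The figure was 22.1% ± 3.71 for Irf7, 11.8% ± 2.30 for Bst2 and 8.46% ± 2.63 for Ifi27l2a. At baseline it was 43.4% for Rsad2, 34.6% for Isg15 and 3.28% for Ifi27l2a. These percentages depend on the number of IFIT-high cells, which were 1.85% of macrophages at baseline and 4.33% to 7.27% in the infarct libraries. They therefore do not compare levels per cell between baseline and infarct. Bst2 was detected in 90.5% of IFIT-high and 62.9% of index-free infarct macrophages on average, and Rsad2 in 58.6% and 2.48%.

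**Figure D5:**
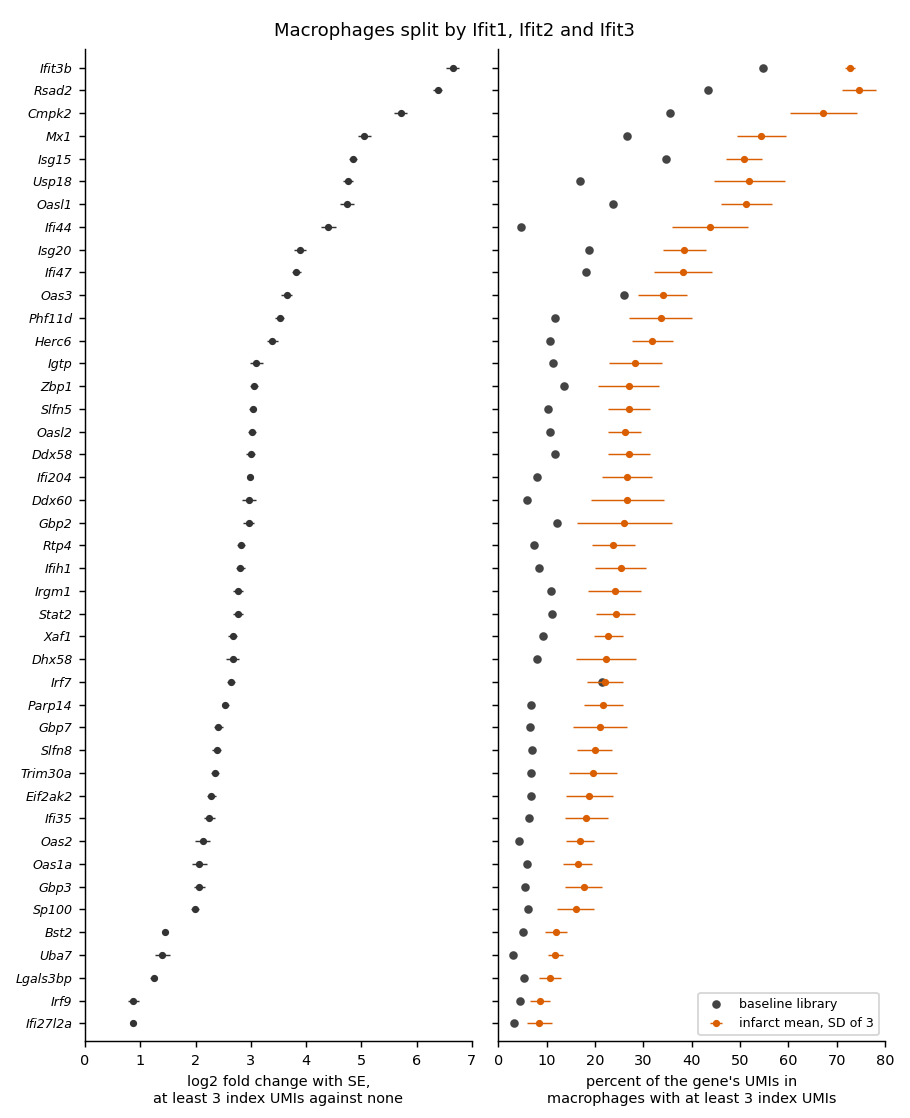
Left, log2 fold change with SE of the 43 tested genes between macrophages with at least 3 and with no Ifit1, Ifit2 and Ifit3 UMIs in the 3 infarct hearts; right, percent of each gene's UMIs in the thinned macrophages found in the cells with at least 3, at baseline and as the infarct mean with SD. Values run from 0.86 for Ifi27l2a to 6.65 for Ifit3b, and the infarct mean lies to the right of baseline for each gene. The cells with at least 3 were themselves a larger share of macrophages in the infarct libraries than at baseline.

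Of the pathway genes, 12 of 26 tested were higher in IFIT-high macrophages and 1 was lower, beside the 6.75% and 1.94% of all genes given above. Cxcl10 was at 1228, 1540 and 1652 CPM against 42.3, 33.5 and 35.1 CPM (5.43 ± 0.0782, adjusted p = 4.54e-51). The brake Socs1 (2.67), Cxcl9 (2.58), the sensor Tlr3 (2.23) and Mb21d1, which encodes cGAS (1.69), were also higher. The receptor genes Ifnar1 (-0.00, adjusted p = 0.995) and Ifnar2 (0.13, adjusted p = 0.383) were not called, and the interferon gamma receptor gene Ifngr1 was lower (-0.45 ± 0.0677, adjusted p = 3.21e-07).

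Depth before thinning did not separate the classes in a common direction. Their median UMIs were 7070 at baseline and 9122 to 9534.5 in the infarct libraries, against 7080 and 8766 to 9159 in index-free cells. Of the IFIT-high infarct cells 21.3% to 23.5% were Gpnmb macrophages and 69.0% to 73.9% were macrophages of no subset, against 21.4% to 26.0% and 59.7% to 68.7% of index-free cells. Saa3 macrophages were 5.95%, 0.840% and 2.26% of the IFIT-high cells in the 3 hearts and 14.9%, 1.10% and 9.14% of the index-free cells, a lower share in each heart. Cells with the highest doublet scores made up 3.87% to 9.52% of IFIT-high and 9.40% to 10.0% of index-free infarct macrophages.

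The infarct and baseline libraries were finally compared within these classes. In macrophages as a whole 24 genes were above baseline in all 3 infarct libraries and 16 below, against 28.3% and 58.6% of all genes. In index-free macrophages 11 of the 43 genes outside the index were above and 25 below, against 27.8% and 56.5% of all genes. Both counts were near the shares of all genes. The median log2 ratio was -0.29 over the listed genes and -0.21 over all genes. These comparisons within classes used the CPM scaling alone, and TMM was not applied. Irf7 was above, at 18.9 CPM at baseline (95% Poisson interval 16.7 to 21.3) and at 67.8, 109 and 90.3 CPM in the infarct libraries. Oas3 was at 4.33 CPM against 16.6, 20.3 and 18.99 CPM, and Ifi44 at 0.948 against 3.59, 5.62 and 6.94 CPM. Isg15, Isg20, Oasl1, Oas1a, Zbp1, Bst2, Uba7 and Lgals3bp were the other genes above in all 3. Rsad2 lay on both sides. Cmpk2, Usp18 and Rtp4, above baseline in macrophages as a whole, were below in all 3, as were 56.5% of all genes.

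Within IFIT-high macrophages Ifit3 was at 1069 CPM at baseline and at 1001, 1194 and 1312 CPM in the infarct libraries, but these cells were chosen by this gene's own UMIs, so nothing is read from how alike these levels are. Ifi44 had 1 UMI in the 106 baseline cells (3.32 CPM, 95% Poisson interval 0.0840 to 18.5) and 80, 191 and 108 UMIs in those of the infarct libraries (82.3, 111 and 119 CPM). It was detected in 0.943% of the baseline and in 15.2%, 20.0% and 21.0% of the infarct IFIT-high cells. Oas3 was at 89.6 CPM at baseline and at 244, 200 and 209 CPM. Irf9 lay the other way, at 209 CPM at baseline and at 91.6, 91.6 and 104 CPM, as did Ifi27l2a, at 2911 CPM and at 1261, 1671 and 1765 CPM. Resident macrophages were 45.3% of the IFIT-high cells at baseline and 1.19%, 0.672% and 0.645% in the infarct libraries. Of index-free cells they were 48.5% at baseline and 1.16% to 1.99% in the infarct libraries. The part of subset composition in the differences within either class was not tested. Ifi44 was not absent from baseline cells, since plasmacytoid dendritic cells of that library held it at 74.0 CPM.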

How the data were processed

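The files hold unnormalised counts of UMIs for each gene in each cell, deposited by the authors after Cell Ranger (version 3.1.0 per the file headers and 3.0.1 per the submitters' processing notes) had aligned the reads to mm10. No per-sample column was left unused (0). Everything after these counts was computed here. A cell was kept if it had between 500 and 40000 UMIs and more than 200 detected genes (10117 to 10782 per library, 71093963 to 97944428 UMIs in all barcodes), and CPM left out mitochondrial genes.

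The genes and lists were chosen with earlier results of these data known, and the gate thresholds after marker counts had been seen. A macrophage had C1q genes at 0.3% of UMIs or more and passed no dendritic, granulocyte, lymphocyte, endothelial or fibroblast gate. Other types had less C1q, and at least 3 markers detected (4 for classical monocytes, granulocytes and fibroblasts). Tests used counts summed per library and type, filterByExpr, TMM and edgeR 4.0.16 (R 4.3.3) quasi-likelihood fits with the heart as a block, since both sums came from the same heart. The edgeR adjusted p threshold was 0.01. With the block, p-values set the difference within a heart against a modelled spread of that difference over 3 hearts. The fit estimates this spread in part from the other genes, not from the gene's own 3 hearts alone. Each type had its own fit, so p-values are not compared between types. DESeq2 1.42.0, no filter, no block, thinning, stricter gates, removal of the highest Scrublet scores and leaving out each heart were alternatives. The automatic Scrublet threshold marked 2.22% of baseline cells and 0% to 0.00988% of infarct cells, so doublets were kept and 8.1% to 8.63% of cells were removed only as an alternative. Genes were named by role, taking the 2 to 4 with the highest mean CPM and the largest and smallest called differences. Other genes were named after their values were seen. On simulated data, 80.9% of 194 genes changed 2-fold were recovered for classical monocytes (12916 genes), 11.2% of 197 for granulocytes (12315 genes) and 69% of 197 for the IFIT split (11200 genes). The simulation gave every gene the same dispersion and gave both groups of a heart the same heart effect. These shares therefore need not hold for the real comparisons. Intervals cover counting error only. Python 3.11.15 and scipy 1.17.1 were used. The values of 1 pathway gene are not reported here.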

Additional observations from a re-analysis of the deposited data

Results flagged for a closer look

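The summed share of the 46 genes moved in opposite directions in different types between baseline and infarct, which is why these values are listed. The difference between types was not tested. On the log2 scale, infarct mean over baseline, it was 0.65 in Gpnmb macrophages and 0.21 in macrophages of no subset, with 3 of 3 infarct libraries above baseline, and -0.41 in granulocytes, with 0 of 3 above. The granulocyte value rests on 39 to 79 cells per library, and the baseline value of Gpnmb macrophages on 69 cells.

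Cells that passed no gate entered no comparison. Their summed share was 0.310% at baseline and 0.363%, 0.479% and 0.339% in the infarct libraries, a mean of 0.393%, above baseline in 3 of 3.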

How the results depend on the processing

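The 43 calls between IFIT-high and index-free macrophages were all kept in every alternative with the same index genes, no replicate block included. With Rsad2, Cmpk2 and Isg15 as index genes 40 were kept and the other 3 were not tested. The paired unit was the heart. Without the replicate block the calls fell from 9 to 2 in resident, 8 to 0 in Gpnmb, 17 to 8 in Saa3 and 28 to 5 in cycling macrophages, from 22 to 11 in classical monocytes and from 22 to 10 in type 2 dendritic cells. Thinned to 2000 UMIs, they were 4 in resident, 5 in Gpnmb and 12 in cycling macrophages, 11 in type 2 and 17 in mature dendritic cells. The DESeq2 Wald test gave 4 in resident macrophages, 18 in mature dendritic cells and 4 in granulocytes, no filter gave 13 in Gpnmb macrophages, and 1 marker more gave 7 in granulocytes. Leaving out 1 heart gave 5 to 14 calls in resident, 3 to 10 in Gpnmb, 12 to 23 in Saa3 and 19 to 31 in cycling macrophages, 13 to 25 in classical and 23 to 30 in non-classical monocytes, 20 to 27 in type 2 and 22 to 26 in mature dendritic cells and 0 to 9 in granulocytes. Of 204 values of the named extremes, 184 kept their side and call, 20 their side only and 0 reversed. The cause was not tested.

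Against baseline, TMM scaling gave 8 upward calls, macrophages alone gave 5 upward and 1 downward, and leaving out 1 infarct heart gave 2 to 4 upward and 0 downward. Summed shares without the 3 genes with the most UMIs were lower by construction. The infarct means were 0.255% in all cells (baseline 0.230%), 0.235% in resident, 0.235% in Gpnmb, 0.233% in Saa3 and 0.200% in cycling macrophages, 0.347% in classical and 0.148% in non-classical monocytes, 0.192% in type 2, 0.176% in mature and 0.216% in plasmacytoid dendritic cells and 0.229% in granulocytes. As a mean over cells the share was 0.413% at baseline and 0.355% in infarct granulocytes, and with 1 marker more it was 0.586% in infarct resident macrophages.

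The share of macrophages over the index limit was 9.43% at baseline and 14.8% in infarcts for a limit of 1 UMI, 0.873% and 2.87% for 6 UMIs, and 3.74% and 9.73% without thinning. With Rsad2, Cmpk2 and Isg15 as index genes it was 1.38% at baseline and 5.44% in infarcts. Infarct was above baseline in each.

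The granulocyte test rested on 39 to 79 cells per heart at medians of 2274 to 2793 UMIs, and 11.2% of simulated 2-fold changes were recovered. Fewer than 20 cells per library left type 1 and plasmacytoid dendritic cells, B cells, T or NK cells, endothelial cells and fibroblasts without a test.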
